A study of Homo sapiens with 6 samples.

Results

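The 65 protein-coding genes described here encode the translation initiation factors, the translation elongation factors and the enzymes that act on them, out of 61852 genes in the deposited count table. They were chosen by name: symbols that start with EIF1 to EIF6, or with EEF1 or EEF2, without the eIF2 kinases and without the synthetase-complex protein EEF1E1. They were split by factor complex into 5 genes of eIF1 and eIF1A, 6 of eIF2, 5 of eIF2B, 14 of eIF3, 12 of the eIF4 cap complex, 4 of the eIF4E-binding proteins, 6 of eIF5 and eIF6, 5 of eEF1, 2 of eEF2 and its kinase, and 6 methyltransferases. No measured value entered the choice. The Y-linked EIF1AY was counted, and its values are not reported.

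The libraries were poly(A)-enriched, paired-end RNA-seq of MEG-01, an established human megakaryoblastic leukaemia line. The 3 control libraries came from cells labelled control (pLKO.1), which carried the control vector, and the 3 knockdown libraries from cells labelled MELK knockdown (sh2-MELK). MELK is a serine/threonine kinase, and the design asks which transcripts differ when its mRNA is targeted. The labels give all 6 libraries the batch F5, and each group rests on 1 cell line and either 1 hairpin or 1 control vector, so a difference belongs to that hairpin against that vector. The study calls the replicates independent biological replicates without saying what was separate. The spread behind each edgeR and DESeq2 p-value is that between these libraries and may be technical. Likelihood-ratio p-values and 95% intervals, given for some scarce genes, rest on a spread taken from highly expressed genes and may be too narrow.

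Translation starts when eIF2, loaded with GTP and initiator methionyl-tRNA, joins the small ribosomal subunit together with eIF1, eIF1A, eIF3 and eIF5. The cap-binding protein eIF4E, the scaffold eIF4G and the helicase eIF4A bring that subunit to the capped end of an mRNA, with eIF4B and eIF4H assisting the helicase. eIF5 triggers GTP hydrolysis at the start codon, eIF2B reloads eIF2 with GTP, and eIF5B joins the large subunit. The chain then grows as eEF1A delivers each aminoacyl-tRNA and eEF2 moves the ribosome along. Many mRNAs of ribosomal proteins and of translation factors begin with a terminal oligopyrimidine (TOP) tract, a C followed by pyrimidines, which places their translation under control of the kinase mTOR.

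The first bases of the annotated transcripts are shown because the factors differ in this tract. Each window holds 15 bases before a RefSeq gene start and 15 bases from it, 5′ to 3′ on the transcript's strand, on GRCh38.p14. Capitals mark the first 5 bases of the transcript. The first 8 windows belong to genes with a TOP-type start and the last 3 to genes without one.
EIF4B (chr12:53006441-53006470, plus strand): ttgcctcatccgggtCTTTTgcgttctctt
EEF1A1 (chr6:73521018-73521047, minus strand): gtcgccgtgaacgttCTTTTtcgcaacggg
EEF2 (chr19:3985449-3985478, minus strand): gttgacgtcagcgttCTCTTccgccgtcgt
EIF3F (chr11:7987322-7987351, plus strand): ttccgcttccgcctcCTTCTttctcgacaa
EIF3K (chr19:38619173-38619202, plus strand): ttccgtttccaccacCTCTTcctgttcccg
EIF2D (chr1:206612451-206612480, minus strand): ggtttccagccgggcCCTTTtcgcggccgg
EIF3M (chr11:32583816-32583845, plus strand): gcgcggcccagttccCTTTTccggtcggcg
EIF2S3 (chrX:24054941-24054970, plus strand): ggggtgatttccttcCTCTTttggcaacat
EIF2S1 (chr14:67360313-67360342, plus strand): gcgaggaggttccgcATGCGcggtggagtg
EIF2B1 (chr12:123633672-123633701, minus strand): gaggggtacggaagtGCGCCggaagtgggg
EEF2K (chr16:22206263-22206292, plus strand): tgcccgcccgcttctGCTCAacctagacca
The pattern searched was a C at the first transcribed base followed by 4 bases that are each C or T, at that position and on that strand only. It was present at 4.07% of the 35116 RefSeq starts. Of the 52 factor genes with a start in the table, 13 had it at 1 or more of their starts: EIF2A, EIF2D, EIF2S3, EIF2S3B, EIF3D, EIF3F, EIF3K, EIF3M, EIF4A2, EIF4B, EEF1A1, EEF1B2 and EEF2. EIF4G2 and EIF5 have 2 annotated starts each, and the pattern was at none of them.

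Library totals were 18945176 to 21711313 counts, and the factor genes took 3.21% to 3.47% of them. Log-scale correlations between libraries were 0.994 to 0.996 within groups and 0.89 to 0.907 between groups. MELK read 219, 206 and 238 counts in control and 16, 124 and 26 in the knockdown libraries, a log2 fold change of -1.98 ± 0.69 (SE) that did not pass (edgeR adjusted p = 0.104). Without knockdown replicate 2 it was -3.32 (edgeR adjusted p = 0.00271). To each count 0, 1, 2, 10 or 100 appears to have been added, since 57.9% of genes hold no other value, so factors averaging under 500 counts are kept apart below. Factors not far above that mean can still carry an added 100 in single libraries. The megakaryocyte markers ITGA2B, ITGB3, GP1BA and GP6 were present, PF4 held only such added values, and GP9 was close to them. Lineage markers moved with the groups, in CPM (library-size-scaled counts, with edgeR's TMM factors for composition). Summed over 6 megakaryocyte markers the level was 2166 to 2271 CPM in control and 1226 to 1274 CPM in knockdown libraries. ITGA2B made up most of that sum, at 2024 and 1061 CPM on average, and GP6 rose, from 89.4 to 128 CPM (edgeR adjusted p = 8.53e-05). Over 5 erythroid markers it was 482 to 505 and 155 to 168 CPM, and over 5 monocyte and granulocyte markers 92.5 to 101 and 42.2 to 48.2 CPM. ITGAM carried the latter, at 63.5 and 11.3 CPM on average, while LYZ rose from 25 to 30 CPM (edgeR adjusted p = 0.0428) and CD14 was at -0.07 and not called. Summed fibroblast markers were 1.71 to 6.59 CPM in control and 5.32 to 16.1 CPM in knockdown libraries, and lymphocyte markers 0.0976 to 5.76 and 0.318 to 5.17. The part of these shifts in the factor results was not tested, and in bulk RNA fewer cells of a kind and less RNA per cell cannot be told apart.

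The factors did not move as a block: at a mean of at least 500 counts, EIF2S1, EIF5 and EIF4G2 rose most, while EIF4EBP1, EEF2K and EIF4B fell most. Of 62 factor genes tested, 18 were higher and 13 lower in the knockdown (edgeR's quasi-likelihood test, Benjamini-Hochberg adjusted p below 0.05), where 8.12% of all 28303 genes tested were higher and 8.43% lower, 16.5% in all. Most factors are highly expressed, so the nearer background is the genes averaging 500 counts or more, of which 68.0% were called, 32.5% higher and 35.5% lower. Among the 42 factors above that mean, 16 were higher (38.1%), 12 lower (28.6%) and 14 not called. The share called, 66.7%, was near that background and is not a result about the factors. Only 9 of the 42 (21.4%) were called with a log2 change of at least 0.5 in size, where 35.0% of genes at that mean and 10.4% of all genes tested were. The median size of change was 0.25 for the factors and 0.35 for all genes at that mean. The groups did not overlap for 32 of the 42 factors (76.2%), against 79.2% of those genes and 30.7% of all genes tested. Fitted on the genes at that mean alone, edgeR called 20 of the 42 higher and 12 lower, where it called 77.0% of those genes. With the added number modelled, 27 of the 62 were higher and 14 lower, where 39.2% of 26055 genes were called.

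**Figure D1:**
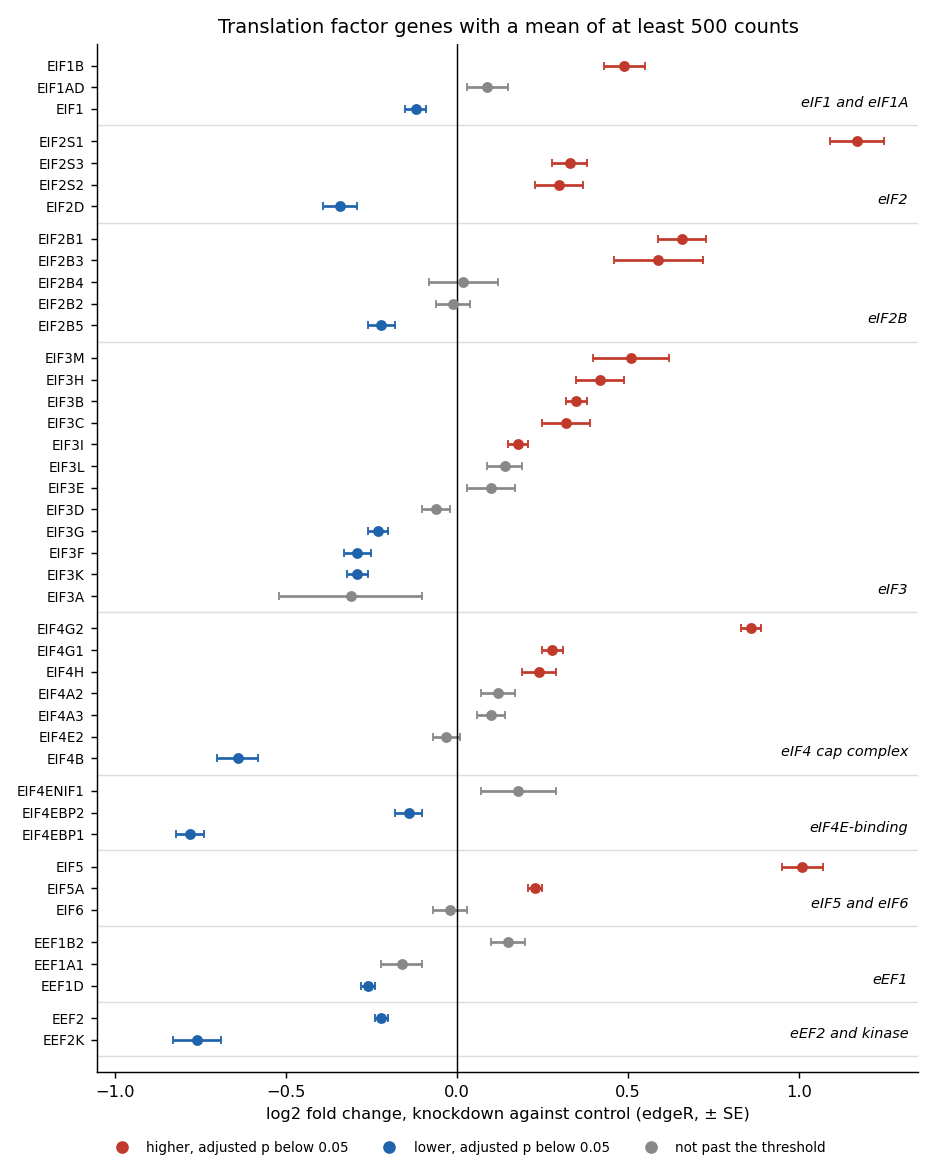
Log2 fold change (x axis, edgeR, knockdown against control, bars ± SE) of the 42 factor genes averaging 500 counts or more, grouped by complex. Values run from -0.78 (EIF4EBP1) to 1.17 (EIF2S1), with 16 genes higher in red, 12 lower in blue and 14 not past the threshold in grey.

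Fold changes fell with the GC content of the longest annotated transcript across all genes at that mean (Spearman rho -0.386 over 5031 genes) and across the 42 factors (rho -0.365), a description across genes that share the same 6 libraries. The factors' GC content ran from 37.9% to 65.5%, with a median of 45.3% for those higher, 50.1% for those lower and 47.7% for those not called. The trends with the GC content and length of the longest transcript were then taken out library by library, as an offset in the fit. With it, 21 of the 28 calls kept their direction and their call. EIF2S2, EIF2S3, EIF3G, EIF3H, EIF3M, EEF1D and EEF2 lost theirs, and the split over the 42 became 13 higher and 16 lower, where 76.7% of genes so fitted were called, 40.3% higher and 36.4% lower. Values with that offset are given below where they change a call.

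**Figure D2:**
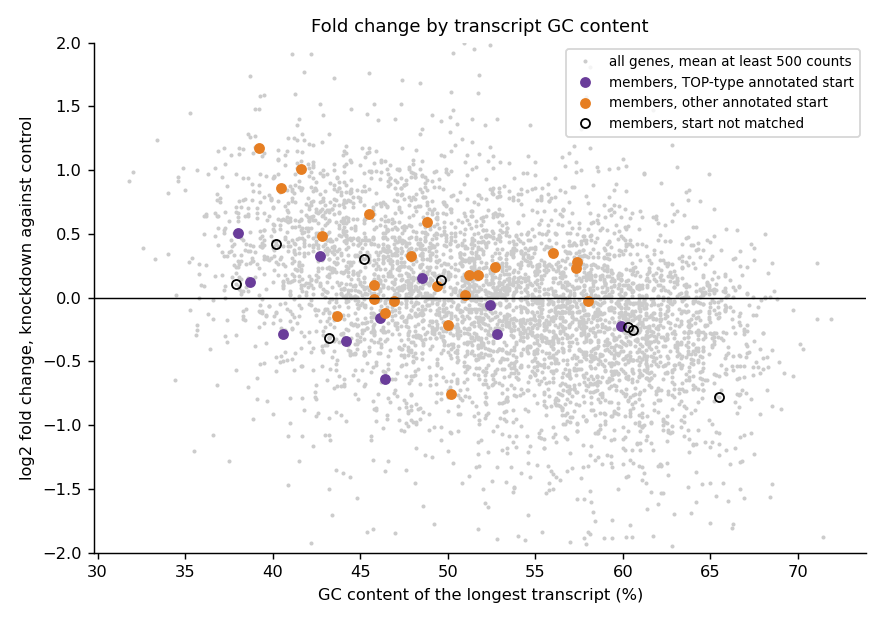
Log2 fold change (y axis, edgeR, knockdown against control) by GC content of the longest transcript (x axis, %) for genes averaging 500 counts or more, in grey, and the factors in colour by their annotated start. Fold changes fall towards high GC content, with Spearman rho -0.386 over all 5031 genes and -0.365 over the 42 factors; 46 genes lie beyond ± 2 and are not drawn.

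The α subunit gene of eIF2 rose most of all factors at a mean of at least 500 counts. EIF2S1 (ENSG00000134001.15, chromosome 14, 67359997 to 67386516) encodes the subunit whose phosphorylation by stress kinases slows initiation. It read 435, 431 and 514 counts in control and 986, 1034 and 1013 in the knockdown libraries, or 22.9 ± 1.94 and 51.7 ± 1.85 CPM (SD, n = 3). Every knockdown library was above every control library, and the log2 fold change was 1.17 ± 0.08 (SE, edgeR adjusted p = 1.52e-05), or 0.78 with the GC and length offset (edgeR adjusted p = 1.84e-07). EIF2S2, the β subunit, read 675, 560 and 599 counts in control and 745, 753 and 709 in knockdown libraries, a change of 0.30 ± 0.07 (edgeR adjusted p = 0.0214). EIF2S3, the γ subunit that holds GTP and the initiator tRNA, went from 129 ± 8.72 to 162 ± 4.32 CPM (SD, n = 3), a change of 0.33 ± 0.05 (edgeR adjusted p = 0.00257). With the offset the β and γ subunits were at 0.09 and 0.05 and no longer passed, and EIF2S2 also missed the threshold without any 1 library except control replicate 1, with edgeR adjusted p of 0.0693 to 0.0761. Per kilobase of annotated exon, EIF2S1 had the lowest level of these genes in both groups: it went from 4.06 to 9.15 CPM per kb, EIF2S2 from 11.5 to 14.2 and EIF2S3 from 37.1 to 46.6.

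EIF2D, which can deliver tRNA to the ribosome without GTP, is filed here with eIF2 by name and moved the other way. It read 1151, 1081 and 1107 counts in control and 839, 856 and 876 in knockdown libraries, a change of -0.34 ± 0.05 (edgeR adjusted p = 0.00261), and -0.57 with the offset. EIF2A, a factor separate from the trimer, was at -0.05 ± 0.15 with a mean of 312 counts and was not called. EIF2S3B, a near copy of EIF2S3, read 12, 3 and 6 counts in control and 103, 107 and 3 in knockdown libraries, values that the added numbers can give.

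The exchange factor eIF2B was split. EIF2B1, the α subunit of the regulatory part, read 602, 537 and 557 counts in control and 866, 840 and 897 in knockdown libraries, and rose by 0.66 ± 0.07 (edgeR adjusted p = 0.000304). EIF2B3, the γ subunit of the catalytic part, read 502, 696 and 605 counts in control and 880, 864 and 917 in knockdown libraries, and rose by 0.59 ± 0.13 (edgeR adjusted p = 0.0146). For both genes the groups were apart, but EIF2B3 varied more among controls, at 30.1 ± 5.79 CPM (SD, n = 3), and missed the threshold without control replicate 3 or without any 1 knockdown library (edgeR adjusted p of 0.0569 to 0.0868). EIF2B5, the ε subunit that carries the exchange activity, fell from 110 ± 0.93 to 94.8 ± 3.26 CPM (SD, n = 3), a change of -0.22 ± 0.04 (edgeR adjusted p = 0.00447). EIF2B2 and EIF2B4, the β and δ subunits of the regulatory part, were at -0.01 ± 0.05 and 0.02 ± 0.10 with overlapping groups. With the offset EIF2B2 was at -0.22 and passed (edgeR adjusted p = 0.0111).

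EIF5, the GTPase-activating partner of eIF2, showed the largest rise after EIF2S1 at that mean. The gene (ENSG00000100664.11, chromosome 14, 103333544 to 103345025) read 1172, 999 and 1034 counts in control and 2043, 2094 and 2166 in the knockdown libraries. All 3 knockdown libraries were far above all controls, at 107 ± 6.31 against 53.2 ± 3.68 CPM (SD, n = 3), a change of 1.01 ± 0.06 (edgeR adjusted p = 1.28e-05), or 0.73 with the offset. Counting eIF2, eIF2B and EIF5 together, 10 genes passed the mean of 500 counts, of which 6 were higher, 2 lower and 2 not called, with a median of 0.32 where all genes at that mean had -0.02 and 32.5% were higher and 35.5% lower. With the offset 4 of the 10 were higher, 3 lower and 3 not called, and the median was 0.07, beside 0.03 for all genes.

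**Figure D3:**
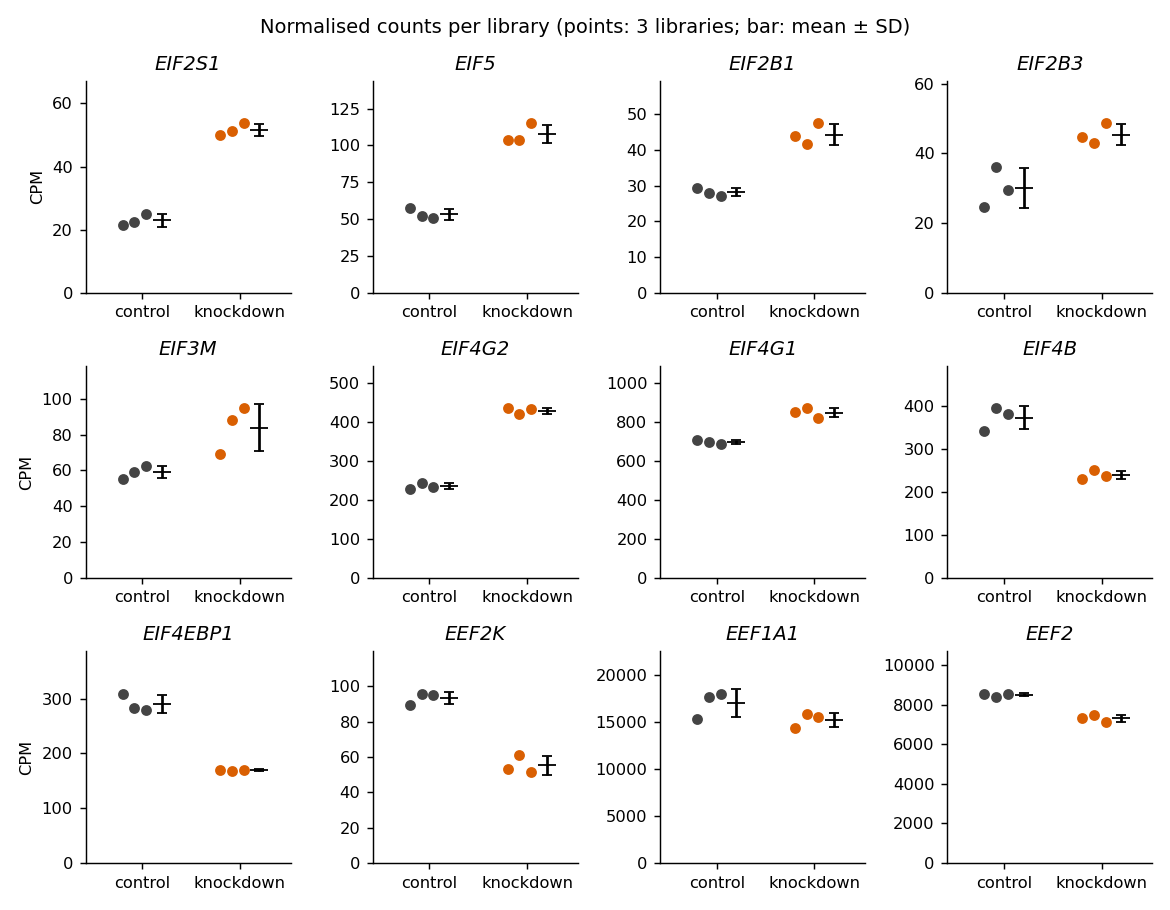
CPM (y axis, linear from 0) of 12 factor genes in each of the 3 control and 3 knockdown libraries, as points, with mean ± SD beside them. EIF2S1, EIF5 and EIF4G2 sit well above control in every knockdown library, EIF4B, EIF4EBP1 and EEF2K well below, and EEF1A1 overlaps.

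Of the factors that scan for the start codon, EIF1, which guards its fidelity, was abundant and changed little. It was 1301 ± 30.3 CPM in control and 1199 ± 23 CPM in knockdown libraries (SD, n = 3), a change of -0.12 ± 0.03 (edgeR adjusted p = 0.0176), and it missed the threshold without control replicate 3, knockdown replicate 1 or knockdown replicate 3 (edgeR adjusted p of 0.0772 to 0.0889). With library-size scaling alone EIF1 was at -0.05 (edgeR adjusted p = 0.271), and with the GC and length offset at -0.31. Its close paralogue EIF1B rose: 845, 905 and 928 counts in control and 1180, 1255 and 1225 in knockdown libraries, a change of 0.49 ± 0.06 (edgeR adjusted p = 0.000694), or 0.22 with the offset. EIF1AD, named for its eIF1A-like domain, was at 0.09 ± 0.06 and not called. EIF1AX, the X-linked eIF1A gene, read 324, 284 and 345 counts in control and 295, 492 and 426 in knockdown libraries, with overlapping groups; it was at 0.39 ± 0.18, and at 0.57 without knockdown replicate 1 (edgeR adjusted p = 0.0203).

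eIF3, the large scaffold that holds the small subunit, gave changes in both directions among 12 subunit genes at a mean of at least 500 counts: 5 higher, 3 lower and 4 not called, with a median of 0.12. EIF3B, a core subunit that anchors the complex, rose from 358 ± 6.03 to 456 ± 6.98 CPM (SD, n = 3), a change of 0.35 ± 0.03 (edgeR adjusted p = 3.34e-05), or 0.49 with the offset. EIF3I, which binds EIF3B, rose by 0.18 ± 0.03 (edgeR adjusted p = 0.0032). EIF3G, a further subunit of that module, fell by 0.23 on the log2 scale (SE 0.03, edgeR adjusted p = 0.000397), but was at 0.02 with the offset. EIF3A, the largest scaffold subunit, read 835, 481 and 508 counts in control and 566, 436 and 428 in knockdown libraries; it was at -0.31 ± 0.21 with overlapping groups, and control replicate 1 stood above its fellows. With the offset EIF3A was at -0.54 (edgeR adjusted p = 0.0405).

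Of the other eIF3 subunit genes, EIF3J and EIF3M had the largest changes. EIF3M read 1130, 1141 and 1277 counts in control and 1367, 1768 and 1785 in knockdown libraries, so that the lowest knockdown library lay close to the controls. Its change was 0.51 ± 0.11 (edgeR adjusted p = 0.0124), and 0.09 with the offset, where it did not pass; it also missed the threshold without control replicate 1, control replicate 2, knockdown replicate 2 or knockdown replicate 3 (edgeR adjusted p of 0.0627 to 0.083). EIF3H was at 0.42 ± 0.07 (edgeR adjusted p = 0.003), and at 0.05 with the offset. EIF3C rose by 0.32 ± 0.07 (edgeR adjusted p = 0.0107), though not past the threshold without knockdown replicate 1 or knockdown replicate 2 (0.0596 and 0.0624). EIF3K and EIF3F both fell, each by 0.29 on the log2 scale with SE of 0.03 and 0.04, and remained below with the offset at -0.26 and -0.56. EIF3D, a cap-binding subunit, was at -0.06 ± 0.04, EIF3L at 0.14 ± 0.05 and EIF3E at 0.10 ± 0.07, none of them called in the main comparison. With the offset EIF3E passed at -0.33. EIF3L was called higher by DESeq2 (adjusted p = 0.0277) and by edgeR fitted on genes averaging 500 counts or more (0.15, adjusted p = 0.00823). EIF3J, a loosely bound subunit with a mean of 455 counts, read 403, 318 and 393 in control and 509, 573 and 536 in knockdown libraries and rose by 0.58 ± 0.10 (edgeR adjusted p = 0.00413).

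Levels of the eIF3 genes, per kilobase of annotated exon, spanned a wide range although the protein complex holds its core subunits together. The divisor was the merged length of all annotated exons of a gene, 1725 bases for EIF3I and 9431 for EIF3F. These were at 391 and 340 CPM in control, so the order below also depends on the annotation. EIF3L shares 41.1% of its exon bases with another gene on the same strand. In control libraries EIF3I led with 227 ± 4.15 CPM per kb (SD, n = 3), followed by EIF3K with 144, EIF3G with 129, EIF3D with 67, EIF3L with 47.3, EIF3B with 39.7, EIF3F with 36.1, EIF3H with 21, EIF3E with 11 and EIF3M with 7.94. EIF3C with 6.57, EIF3J with 5.78 and EIF3A with 4.26 CPM per kb were the lowest apart from EIF3CL. Of these 3, EIF3J averaged under 500 counts, at 455. The neighbours EIF3C and EIF3J, and EIF3J and EIF3A, overlapped between libraries. The order was the same in the knockdown except that EIF3J, at 8.63, stood above EIF3C, at 8.22. EIF3CL, a near-identical copy of EIF3C, was at 0.516 CPM per kb, and how reads were divided between the pair depends on the authors' counting.

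**Figure D4:**
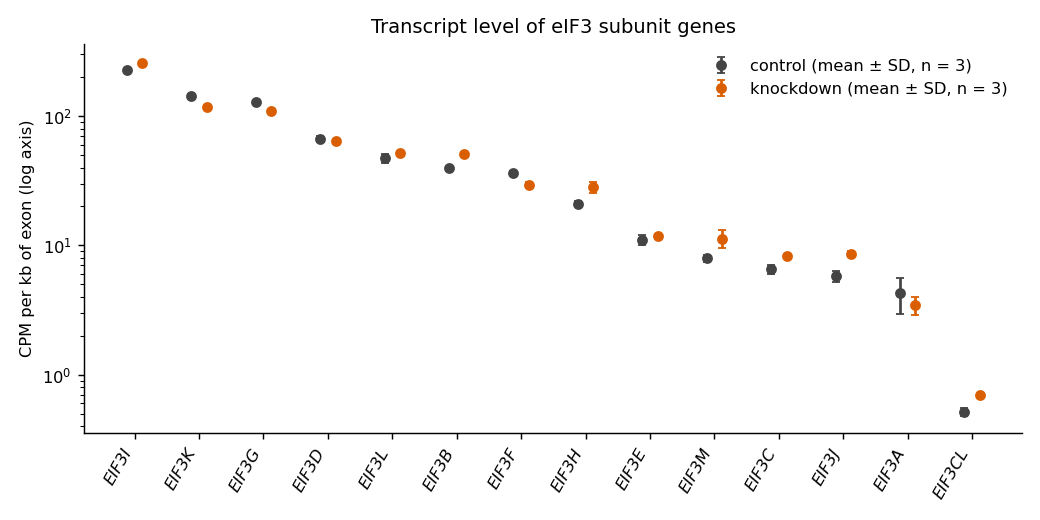
Level of 14 eIF3 genes in CPM per kilobase of exon (y axis, log scale; mean ± SD, n = 3) in control and knockdown libraries, ordered by the control level. EIF3I is highest, at 227 in control and 257 in knockdown libraries, and the order differs between groups at EIF3C and EIF3J.

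Among the cap-complex genes, the unconventional scaffold EIF4G2 rose most. EIF4G2 (also called DAP5; ENSG00000110321.19, chromosome 11, 10797050 to 10809110) lacks the eIF4E-binding part of eIF4G and serves initiation that does not use eIF4E. It read 4661, 4686 and 4804 counts in control and 8551, 8446 and 8146 in the knockdown libraries, or 235 ± 7.52 and 428 ± 7.65 CPM (SD, n = 3). The change was 0.86 ± 0.03 (edgeR adjusted p = 9.37e-07), or 0.57 with the offset, and the groups were far apart. EIF4G1, the main eIF4G scaffold, read 14392, 13416 and 14084 counts in control and 16693, 17449 and 15469 in knockdown libraries, a smaller rise of 0.28 ± 0.03 (edgeR adjusted p = 0.000192), or 0.50 with the offset. EIF4H, a helicase cofactor, was higher by 0.24 ± 0.05 (edgeR adjusted p = 0.00976), and not past the threshold without knockdown replicate 1 or knockdown replicate 2 (0.0577 and 0.0654). Its relative EIF4B, the other helicase cofactor and a reported MELK partner, moved the other way. EIF4B (ENSG00000063046.18, chromosome 12, 53006158 to 53042209), whose transcript opens with the TOP-type start shown above, read 6972, 7593 and 7822 counts in control and 4541, 5025 and 4474 in knockdown libraries. It fell by 0.64 on the log2 scale (SE 0.06, edgeR adjusted p = 8.68e-05), and was at -0.83 with the offset.

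None of the cap-binding and helicase genes themselves was called by edgeR in the main comparison. EIF4E, the cap-binding protein, read 319, 234 and 196 counts in control and 129, 174 and 185 in knockdown libraries; all knockdown values were below all control values as counts, but the scaled values overlapped. Its change was -0.58 ± 0.24 (edgeR adjusted p = 0.195), and -0.37 with the added number modelled (95% interval -0.57 to -0.20, likelihood-ratio adjusted p = 0.00185). EIF4E2, a cap-binding repressor, was at -0.03 ± 0.04 and passed at -0.21 with the offset. EIF4A2 is a paralogue of the initiation helicase, and EIF4A3 the helicase of the exon junction complex. They were at 0.12 ± 0.05 and 0.10 ± 0.04, with no overlap between groups but no call. Fitted on genes averaging 500 counts or more alone, edgeR called both higher, at 0.14 and 0.12 (adjusted p = 0.013 and 0.0164). With the offset they passed in the opposite direction, at -0.26 and -0.12. EIF4A1, usually the main initiation helicase, held only 104 to 152 counts in each library and was at 0.29 ± 0.30. Of its exon bases 48.6% are shared on the same strand with the read-through gene SENP3-EIF4A1, a further transcript and 3 small nucleolar RNAs, so its level may not be that of the mRNA; how the authors' counting treated shared bases is not given in the sources used here.

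The proteins that bind eIF4E and block its use included the largest fall at a mean of at least 500 counts. EIF4EBP1 (ENSG00000187840.5, chromosome 8, 38030341 to 38060365), a target of mTOR that represses cap-dependent initiation when unphosphorylated, read 6300, 5438 and 5731 counts in control and 3358, 3356 and 3216 in knockdown libraries. Knockdown libraries varied little, at 169 ± 2.11 CPM against 290 ± 16 CPM (SD, n = 3), and all lay below the controls. The change was -0.78 ± 0.04 (edgeR adjusted p = 6.19e-06), or -0.41 with the offset. EIF4EBP2 fell by 0.14 on the log2 scale (SE 0.04, edgeR adjusted p = 0.0272), a call lost with library-size scaling alone (-0.07) and without any 1 library except control replicate 1 (edgeR adjusted p of 0.0613 to 0.1). EIF4ENIF1, which carries eIF4E into the nucleus, was at 0.18 ± 0.11 and not called, and EIF4EBP3 held 5 to 102 counts in each library.

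The share of a family's counts taken by 1 or more of its paralogues, per exon length, did not overlap between the groups in 4 families: EIF4G, EIF1, EIF4EBP and EIF5A. In the EIF4A, EIF4E and EEF1A families all shares overlapped. No background was computed for shares. For levels of single genes, the groups did not overlap for 79.2% of genes averaging 500 counts or more and 30.7% of all genes tested. EIF4G2 held 24.1% ± 0.722 of the eIF4G counts in control and 32.3% ± 0.947 in knockdown libraries (SD, n = 3), while EIF4G1 went from 74.8% to 66.6% and EIF4G3 stayed near 1.1%. EIF1B held 6.09% ± 0.357 of the EIF1 and EIF1B counts in control and 8.98% ± 0.373 in knockdown libraries. EIF4EBP2 went from 5.60% ± 0.418 to 8.31% ± 0.104 of the 4E-binding protein counts. EIF5A2 held 0.0638% to 0.111% of the EIF5A and EIF5A2 counts in control and 0.189% to 0.369% in knockdown libraries, from 23 to 167 counts a library. These shares take no account of GC content: with the offset EIF4G2 and EIF4G1 were at 0.57 and 0.50, and EIF4EBP1 and EIF4EBP2 at -0.41 and -0.33, so the members of each pair lay close together, while EIF1 and EIF1B were at -0.31 and 0.22. EIF4A2 took 95.1% ± 0.373 and 94.6% ± 0.678 of the EIF4A1 and EIF4A2 counts, with overlapping groups. The limit given above on EIF4A1's shared exon bases applies to these shares too.

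**Figure D5:**
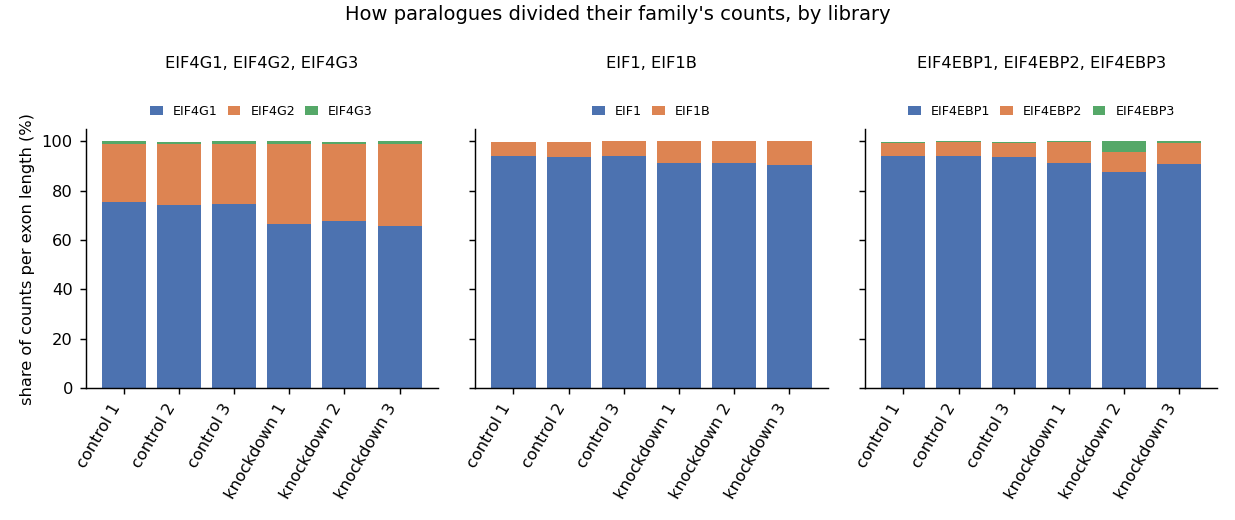
Share of each family's counts per exon length (y axis, %) taken by each paralogue in the 3 control and 3 knockdown libraries, as stacked bars from 0 to 100. EIF4G2 rises from a mean of 24.1% to 32.3%, EIF1B from 6.09% to 8.98% and EIF4EBP2 from 5.60% to 8.31%; the EIF4EBP3 share in knockdown 2 rests on 102 counts.

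Further genes of the eIF5 and eIF6 group moved separately. EIF5A, the hypusine-bearing factor that helps ribosomes past poor peptide-bond formers, rose from 951 ± 8.21 to 1115 ± 14.8 CPM (SD, n = 3), a change of 0.23 ± 0.02 (edgeR adjusted p = 0.000144), or 0.42 with the offset. EIF6, which keeps the large subunit from joining early, was at -0.02 ± 0.05, and with the offset it passed at 0.19. EIF5B, the GTPase of subunit joining, read 309, 168 and 283 counts in control and 119, 133 and 115 in knockdown libraries. All knockdown values were below all control values, and its change was -1.01 ± 0.25 (edgeR adjusted p = 0.0249), or -0.59 with the added number modelled (95% interval -0.80 to -0.37). The EIF5B call was lost without any 1 library except control replicate 2 (edgeR adjusted p of 0.0722 to 0.107).

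Of the 5 elongation genes with EEF symbols at a mean of at least 500 counts, EEF2K included, 3 were lower, 2 not called and 0 higher in the main comparison. EIF5A, filed above by its name and called higher, is not among them. DESeq2, and edgeR fitted on genes at that mean alone, called EEF1B2 higher, as given below. The median over the 5 was -0.22, where 35.5% of all genes at that mean were lower. With the offset 2 were lower and 3 not called, and the median was -0.01. EEF1A1 and EEF2 alone held 68.0% to 72.4% of all factor counts. EEF1A1, which delivers aminoacyl-tRNA (ENSG00000156508.19, chromosome 6, 73515750 to 73523797), read 312328, 339659 and 369013 counts in control and 283444, 318352 and 292704 in knockdown libraries. The groups overlapped, and the change was -0.16 ± 0.06 (edgeR adjusted p = 0.161); without control replicate 1 it was -0.22 and passed (edgeR adjusted p = 0.0137), as it did with the offset, at -0.35. EEF2, the translocase (ENSG00000167658.16, chromosome 19, 3976056 to 3985469), read 174273, 161989 and 175346 counts in control and 144097, 150568 and 134368 in knockdown libraries. The knockdown libraries lay below the controls and the change was -0.22 ± 0.02 (edgeR adjusted p = 0.000227), but with the offset it was 0.02 and did not pass.

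EEF2K, the kinase that inactivates eEF2 by phosphorylation, fell as well. It read 1827, 1846 and 1950 counts in control and 1053, 1231 and 967 in knockdown libraries, and no values overlapped. The change was -0.76 ± 0.07 (edgeR adjusted p = 0.000107), and the same -0.76 with the offset. EEF1D, a subunit of the exchange factor that reloads eEF1A, fell by 0.26 on the log2 scale (SE 0.02, edgeR adjusted p = 8.99e-05), and was at -0.01 with the offset. EEF1B2, another subunit of that factor, went from 599 ± 41.6 to 666 ± 20.5 CPM (SD, n = 3), a change of 0.15 ± 0.05 that did not pass (edgeR adjusted p = 0.0861) and that DESeq2 called (adjusted p = 0.00571). Fitted on genes averaging 500 counts or more alone, edgeR also called EEF1B2, at 0.17 (adjusted p = 0.00268). EEF1G, a further subunit, held only added values, 1, 1 and 2 counts in control and 1, 100 and 1 in knockdown libraries, and was not tested. The annotation shares 99.9% of its exon bases on the same strand with the read-through gene ENSG00000255508, which itself held 1 to 108 counts. EEF1A2, the isoform of muscle and neurons, held 20 to 45 counts in each library.

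The methyltransferases that modify eEF1A and eEF2 were all under a mean of 500 counts. EEF2KMT, which methylates eEF2, read 448, 410 and 457 counts in control and 513, 528 and 506 in knockdown libraries, and passed at 0.27 ± 0.08 (edgeR adjusted p = 0.042). That call was lost without any 1 library (edgeR adjusted p of 0.0597 to 0.097). EEF1AKMT1, EEF1AKMT2, EEF1AKMT3 and EEF1AKMT4, which methylate eEF1A, were between -0.46 and -0.02 and not called. EEF1AKMT1 passed in the other direction with the added number modelled, at 0.41 (95% interval 0.14 to 0.67, likelihood-ratio adjusted p = 0.00898), and the read-through gene EEF1AKMT4-ECE2 held only added values.

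The remaining scarce factors gave no call in the count test, and the number added to their counts is a large part of their values. EIF5A2, a scarcer eIF5A isoform, read 39, 23 and 43 counts in control and 83, 167 and 81 in knockdown libraries, with no overlap; its change was 1.69 ± 0.78 (edgeR adjusted p = 0.241), and 1.31 with the added number modelled (95% interval 0.90 to 1.76, likelihood-ratio adjusted p = 1.67e-10). EIF4E3, a scarcer eIF4E, read 23, 118 and 33 counts in control and 63, 73 and 78 in knockdown libraries. It was at 0.31 ± 1.02, and at 1.70 (1.24 to 2.20) in that model, which reads the 118 as a low count with 100 added. EIF4G3, a scarcer eIF4G scaffold, was at 0.48 ± 0.14 (edgeR adjusted p = 0.0503) and 0.50 in the model. EIF5AL1, EIF3CL and EIF4E1B, copies or relatives of other factors, had means of 39.5, 37.2 and 2.33 counts, and EIF4E1B was not tested.

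Read against the annotated starts, the 11 factors at a mean of at least 500 counts with a TOP-type start comprised 2 higher, 5 lower and 4 not called, with a median of -0.16 and a range of -0.64 to 0.51. The 23 with another start comprised 12 higher, 4 lower and 7 not called, with a median of 0.18 and a range of -0.76 to 1.17. EIF4EBP1, which fell most, EIF2S2, EIF3A, EIF3E, EIF3G, EIF3H, EIF3L and EEF1D had no matched start and are in neither set. The 5 lower TOP-type genes were EIF4B, EIF2D, EIF3F, EIF3K and EEF2, and the 2 higher ones were EIF3M and EIF2S3; the calls of EEF2, EIF3M and EIF2S3 were lost with the offset. With the offset the medians were -0.26 and 0.16. All genes at that mean gave 105 higher and 183 lower of 399 with a TOP-type start, with a median of -0.13, and 1270 higher and 1255 lower of 3738 with another start, with a median of 0.00. The percentage lower among TOP-type starts was thus 45.5 for the factors and 45.9 for all genes. A start in the table is an annotated one, and the starts used in these cells were not analysed here.

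The factor genes lie on 21 chromosomes. On chromosome 3, EIF2B5 (184135038 to 184146112) was at -0.22, EEF1AKMT4 (184249650 to 184259585) at -0.25 and not called, and EIF4G1 (184314495 to 184335358) at 0.28. On chromosome 17, EIF5A (7306999 to 7312463) was at 0.23 and EIF4A1 (7572706 to 7579005) at 0.29 and not called.

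Genes that work beside the factors were read from 2 lists. Of 25 cofactors and genes of termination and recycling, 24 were tested, of which 13 were higher, 1 lower and 10 not called, with a median of 0.40; at a mean of at least 500 counts it was 10 higher and 1 lower of 12, beside 32.5% and 35.5% of all genes there. BZW1, a relative of eIF5 that competes with it for eIF2, rose from 34 ± 1.2 to 95 ± 4.02 CPM (SD, n = 3), a change of 1.48 ± 0.05 (edgeR adjusted p = 6.45e-07), more than any factor called at that mean. The release factor ETF1 rose by 0.89 ± 0.08 (edgeR adjusted p = 0.000113), the poly(A)-binding protein repressor PAIP2 by 0.89 ± 0.10 (edgeR adjusted p = 0.000399) and the ribosome-rescue factor PELO by 0.83 ± 0.09 (edgeR adjusted p = 0.00029). CTIF, the scaffold of the nuclear cap-binding complex, was the 1 gene lower, at -0.43 ± 0.06. With the offset BZW2 and DDX3X, at -0.05 and 0.15, lost their calls, and the poly(A)-binding protein PABPC4 went from 0.12 to -0.09 and passed in that direction.

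Of 26 regulators, 9 were higher, 7 lower and 10 not called, with a median of 0.28, where 16.5% of all genes tested were called. At a mean of at least 500 counts it was 9 higher, 7 lower and 4 not called of 20, beside 68.0% of genes called there. The kinase MTOR rose by 0.93 ± 0.07 (edgeR adjusted p = 3.08e-05), its activator RHEB by 0.97 ± 0.06 (edgeR adjusted p = 1.23e-05) and TSC1, which restrains RHEB, by 1.07 ± 0.08 (edgeR adjusted p = 3.92e-05). MTOR's partners RPTOR and MLST8 were lower, at -0.44 ± 0.03 and -0.64 ± 0.07 (edgeR adjusted p = 2.41e-05 and 0.000303), or -0.14 and -0.32 with the offset. LARP1 was lower too, at -0.31 ± 0.03 (edgeR adjusted p = 0.000139), while AKT1S1 and RPS6KB2 were higher, at 0.45 and 0.46. The eIF4E kinase MKNK2 rose by 0.90 ± 0.03 (edgeR adjusted p = 5.5e-07). PDCD4, which holds eIF4A away from eIF4G, read 1123, 950 and 901 counts in control and 609, 437 and 453 in knockdown libraries and fell by 0.95 on the log2 scale (SE 0.14, edgeR adjusted p = 0.00151). The 4 eIF2 kinases EIF2AK1, EIF2AK2, EIF2AK3 and EIF2AK4 were not called, while the phosphatase subunits that reverse their action, PPP1R15A and PPP1R15B, rose by 0.55 ± 0.03 and 0.70 ± 0.07. With the offset the calls of RPS6KA1 and DDIT4 were lost, both at -0.04. EIF2AK1, TSC2 and CYFIP1, not called without it, passed with it at -0.28, 0.42 and -0.17.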

How the data were processed

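Per the file headers, the authors deposited 1 table of raw whole-number counts per gene for the 6 libraries. The submitters' processing notes name FastQC, fastp, STAR, HTSeq, DESeq2, R 4.3.3 and build GRCh38; how HTSeq counted, with which strand setting and annotation, was not stated in the sources used here. IDs were matched to GENCODE 29, which also gave exon length (all annotated exons of a gene merged), the length and GC content of the longest transcript, and overlaps. Counts were scaled by TMM, filtered with filterByExpr (minimum count 10) and tested with edgeR 4.0.16's robust quasi-likelihood F-test over 28303 genes, with Benjamini-Hochberg adjustment, a threshold of 0.05 and no replicate block. An SE is the size of the log2 fold change divided by the square root of F. Alternatives used DESeq2 1.42.0, limma-voom 3.58.1, other scalings and filters, the replicate block, a GC and length offset (splines with 5 degrees of freedom, genes averaging 500 counts or more), a negative binomial model with the added number (dispersion 0.0014), and each library left out. In the added-number model the dispersion was the same for every gene and was estimated from highly expressed genes. A scarce gene's own spread between libraries therefore did not enter its likelihood-ratio p-value or interval. The fits were tested on simulated data. Counts of replicates of a group differed by more than sampling noise (chi-square per degree of freedom 4.28 to 10.5). The added numbers were not taken out first, so their part in this was not tested. Values in every library are given for factors called with a log2 change of at least 0.5 in size and a mean of at least 500 counts, for EEF1A1, EEF2, EIF4E, EIF4EBP1, EIF2S1 and EIF4G1, and for others where the spread matters; of the other translation genes, those called with at least 0.8 at that mean are named, and further ones were added after their values were seen. The genes and lists were chosen with earlier results of these data known. For factors averaging 500 counts or more, counting error alone is small, so the spread between 3 libraries limits the precision. That spread includes the added numbers of up to 100, which weigh more the nearer a mean lies to 500. For scarcer factors counting error weighs as well, and the added numbers weigh most. 1 marker gene of the lists is not reported here.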

Additional observations from a re-analysis of the deposited data

How the results depend on the processing

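Of the factors called, EIF1B, EIF2B1, EIF2B5, EIF2D, EIF2S1, EIF3B, EIF3F, EIF3I, EIF3K, EIF4B, EIF4EBP1, EIF4G1, EIF4G2, EIF5, EIF5A and EEF2K kept their direction and their call in every alternative, each library left out included, and so did EIF3J in those run at its mean. The factor calls were 13 to 27 higher and 11 to 16 lower in the fits on all libraries, and 12 to 16 higher and 10 to 13 lower with each library left out. The number of all genes called, 4683, became 10224 with the added number modelled, 3857 of 5031 with the GC and length offset, and 3808 to 4064 with each library left out. Library-size scaling alone moved the median of all genes at a mean of at least 500 counts from -0.02 to 0.05 and the factors' from 0.10 to 0.18; with the GC and length offset they were 0.03 and 0.02. Same-numbered libraries did not deviate together (correlations 0.0998, -0.0124 and -0.0801); with the replicate block 18 factors were higher and 11 lower, and all genes called were 4182. MELK, not called at -1.98, passed with the added number modelled (-3.37), with limma-voom (-2.48) and without a filter (-1.98), and ranged from -3.32 to -1.54 with each library left out.

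Directions that changed, with the same values with and without the replicate block, under the GC and length offset were EIF1AD (-0.01), EIF2B4 (-0.04), EIF3E (-0.33), EIF3G (0.02), EIF4A2 (-0.26), EIF4A3 (-0.12), EIF6 (0.19) and EEF2 (0.02). With the added number modelled they were EIF2A (0.28), EIF2B2 (0.02), EIF2B4 (-0.04), EIF4EBP3 (-0.89), EIF5AL1 (0.23), EIF6 (0.00), EEF1AKMT1 (0.41, which passed) and EEF1AKMT3 (0.14). With library-size scaling alone they were EIF2A (0.03), EIF2B2 (0.06), EIF3D (0.01), EIF4E2 (0.05), EIF6 (0.05) and EEF1AKMT3 (0.06). EIF2B2 was at 0.00 in the fit on genes with 500 counts on average, and EEF1AKMT1 and EEF1AKMT3 were at 0.00 and 0.02 with limma-voom and both at 0.01 with the replicate block. With each library left out, the changed ones ranged from -0.15 to 0.04 for EIF2A, -0.04 to 0.02 for EIF2B2, -0.09 to 0.11 for EIF2B4, -0.07 to 1.41 for EIF4E3, -0.32 to 1.97 for EIF4EBP3, -1.52 to 0.02 for EIF5AL1, -0.05 to 0.04 for EIF6, -0.31 to 0.33 for EEF1AKMT1 and -0.13 to 0.22 for EEF1AKMT3. EIF3G and EEF2 were the only ones of these called in the main comparison; the cause of each change was not tested. Calls lost at the same direction were EIF2S2, EIF4EBP2, EIF5B and EEF2KMT without a filter, EIF1, EIF4EBP2, EIF5B and EEF2KMT with the replicate block, EIF5B and EEF2KMT with limma-voom, EEF2KMT with relative log expression factors, and EIF1 and EIF4EBP2 with the added number modelled.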

Other observations

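The table also held 155 pseudogenes of the factors, of which 2 reached a mean of 100 counts: EEF1A1P5, with 1517, 1768 and 1831 counts in control and 1309, 1451 and 1274 in knockdown libraries, and EEF1A1P6, with a mean of 231.7 counts. How reads were divided between such copies is not given in the sources used here. The read-through genes that share exons with EIF4A1 and EIF4EBP3 held few counts: SENP3-EIF4A1 had 1, 4 and 4 in control and 5, 15 and 13 in knockdown libraries, and ANKHD1-EIF4EBP3 had 101, 3 and 2, and 1, 3 and 102.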
